A study of Saccharomyces cerevisiae with 16 samples.

Results

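The genes described here are 5 genes of high-affinity copper uptake in Saccharomyces cerevisiae, CTR1, CTR3, FRE1, FRE7 and MAC1, out of 6685 nuclear open reading frames (ORFs) and 7126 annotated genes measured in each library. They were taken by name, and the set was chosen because measured FRE7 levels were lower in a second pulse of galactose than in the first one. CTR2, a related gene for the vacuolar copper exporter, was set aside because it was listed at 0 in 3 of 16 libraries, with up to 66.1 FPKM elsewhere.

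RNA sequencing was performed on 2 strains, YTK113, labelled hda1-/- and called hda1Δ here, and YSB787, labelled wild type. HDA1 encodes the catalytic subunit of the histone deacetylase complex Hda1C. Both strains were grown in synthetic complete medium with raffinose (Ra-0). They were then moved to galactose for 15, 30 and 120 min (Gal-15, Gal-30, Gal-120), to glucose for 30 and 120 min (Glu-30, Glu-120), and to galactose again for 15 and 30 min (Gal-15-1, Gal-30-1, read here as the second pulse). The 8 stages in both strains gave 16 libraries, 1 for each strain and stage, and no agent beyond the sugars was named. Each strain is a single line, and with 1 library a group no p-value can be given. Levels are FPKM, fragments scaled to gene length and to the size of the library, so that genes can be compared per length. Intervals are exact at 95% and cover counting error only, not the spread between cultures.

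Yeast takes up copper as the reduced ion. Metalloreductases at the plasma membrane, FRE1 and FRE7 among their genes, reduce cupric ions, and the transporters Ctr1 and Ctr3 carry the cuprous ions into the cell. The transcription factor Mac1 senses copper inside the cell and, when copper is scarce, activates CTR1, CTR3, FRE1 and FRE7 through copper response elements in their promoters.

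The core of these elements was searched, as TTTGCTC and as TTTGCGC, on both strands of the 500 bases before each start codon in RefSeq's R64 genome. The stretches below carry the matches of the members and of IRC7 and REE1, which are further genes that Mac1 is known to regulate. Matches are in capitals, and GAGCAAA and GCGCAAA are the same cores on the opposite strand.
CTR1, bases 400 to 151 before the start codon (chrXVI:785808-786057, + strand): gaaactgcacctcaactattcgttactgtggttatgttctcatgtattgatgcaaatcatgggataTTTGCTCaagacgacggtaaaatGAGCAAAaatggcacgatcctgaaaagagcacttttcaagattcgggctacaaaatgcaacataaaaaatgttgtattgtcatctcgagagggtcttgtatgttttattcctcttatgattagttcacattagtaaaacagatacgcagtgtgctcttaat
FRE1, bases 400 to 151 before the start codon (chrXII:568167-568416, + strand): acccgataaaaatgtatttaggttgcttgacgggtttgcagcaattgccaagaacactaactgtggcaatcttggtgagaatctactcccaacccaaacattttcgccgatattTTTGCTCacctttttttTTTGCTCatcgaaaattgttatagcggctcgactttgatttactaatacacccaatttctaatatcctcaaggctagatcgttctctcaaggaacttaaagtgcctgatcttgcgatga
FRE1, bases 107 to 79 before the start codon (chrXII:568460-568488, + strand): ttttgaagtcgTTTGCTCtcttccatgct
FRE7, bases 400 to 151 before the start codon (chrXV:40348-40597, + strand): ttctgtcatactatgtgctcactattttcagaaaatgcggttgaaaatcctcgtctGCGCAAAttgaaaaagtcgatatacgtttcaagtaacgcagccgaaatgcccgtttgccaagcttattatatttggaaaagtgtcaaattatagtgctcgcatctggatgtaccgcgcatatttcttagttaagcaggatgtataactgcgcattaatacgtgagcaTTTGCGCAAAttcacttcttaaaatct
IRC7, bases 172 to 144 before the start codon (chrVI:264032-264060, + strand): gaaagtgccaaTTTGCTCatcagtgctaa
REE1, bases 237 to 209 before the start codon (chrX:22896-22924, + strand): ctaatttttcaGCGCAAAttaacatgcgg

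CTR1 (YPR124W, chromosome XVI, 786208 to 787428, + strand) had TTTGCTC at 334 bases before its start codon and, on the opposite strand, at 311 bases. FRE1 (YLR214W, chromosome XII, 568567 to 570627, + strand) had it at 286, 269 and 96 bases, each on the strand of the gene. FRE7 (YOL152W, chromosome XV, 40748 to 42610, + strand) had TTTGCGC at 344, 177 and 174 bases, and its last 2 matches overlap as a palindrome. CTR3 (YLR411W, chromosome XII, 947253 to 947978, + strand) and MAC1 (YMR021C, chromosome XIII, 317165 to 318418, - strand) had no match, which says only that these letters were not in their windows. Before CTR3, the reference annotates a Ty2 retrotransposon whose end lies 102 bases from the start codon, so most of that window is Ty2 sequence. The reference annotation also says that a Ty2 insertion disrupts the gene in many laboratory strains.

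Among the 6685 ORFs, 8.5% had TTTGCTC in a window of this length, 4.37% had TTTGCGC and 12.5% had either. At least 2 matches of either core stood before 0.823% of ORFs, CTR1 among them. At least 3 stood before 3 ORFs, which were FRE1, FRE7 and SIP4, a gene for a regulator of gluconeogenesis, named here after its count was seen. IRC7 had 1 match at 161 bases and REE1 had 1 at 226 bases. A match is a description of the sequence and not a measured binding site.

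**Figure D1:**
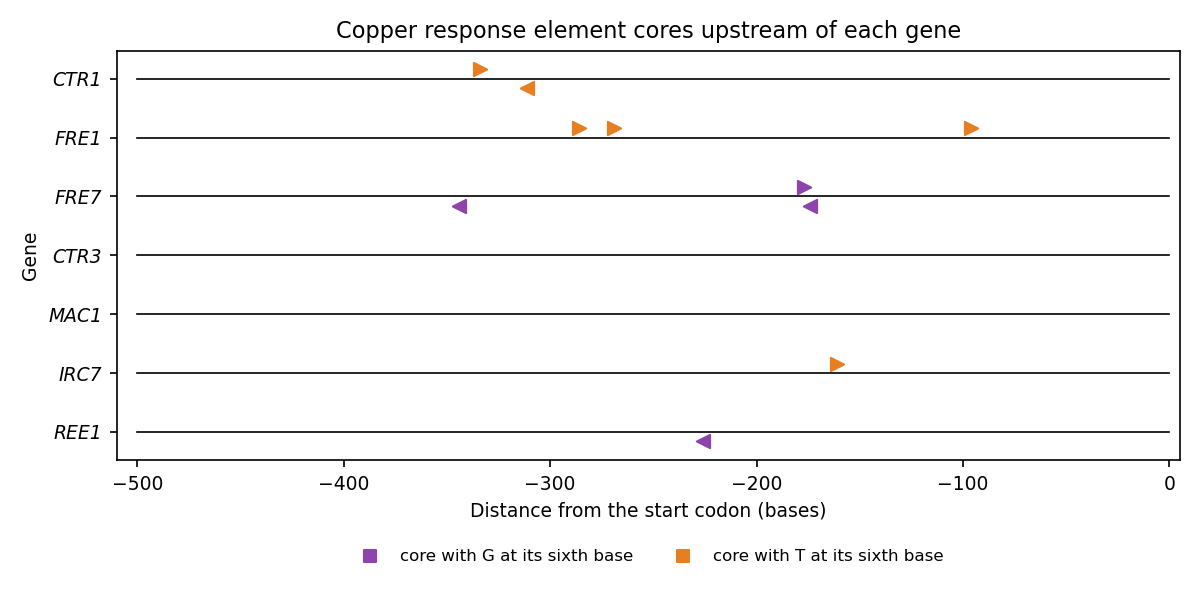
Positions of the copper response element cores in the 500 bases before the start codon of 7 genes, on a scale of bases from the start codon. Each arrowhead marks the first base of a match, above the line on the strand of the gene and below it on the opposite strand, and colours give the form of the core. CTR1, FRE1 and FRE7 have 2, 3 and 3 matches, IRC7 and REE1 have 1 each, and CTR3 and MAC1 have 0.

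The libraries held 9.37 to 13.8 M fragments (median 12.4), each counted as 2 read lengths of aligned bases, and 87.7 to 89.7% of aligned bases lay in annotated genes. HDA1 was at 0 to 0.16 FPKM in hda1Δ cells, against 27.0 to 38.8 FPKM in wild-type cells, which fits the labels. GAL1, the galactokinase gene, was highest at Gal-30-1, with 3147 FPKM in hda1Δ cells and 1347 FPKM in wild-type cells. Genes for noncoding RNAs took 15.7% of gene bases in the hda1Δ library at Gal-120 and 14.7% at Gal-15-1, against 10.2% and 11.7% in the wild-type libraries, and these hda1Δ libraries had the highest shares of the 16. All 5 members were among the 5881 ORFs that were tested, those averaging 1 FPKM or more over the libraries. They were covered by 322 to 5486 fragments a library for CTR1, 219 to 5239 for FRE1, 106 to 2061 for FRE7 and 265 to 629 for MAC1. CTR3 had only 15 to 67. No stretch of 1 read length from any member recurs elsewhere in the genome.

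CTR1 encodes the main high-affinity copper transporter and had the highest mean level of the 5 in both strains. In hda1Δ cells it was at 327, 276, 259.8, 181, 54.6, 106, 37.5 and 26.1 FPKM from Ra-0 through the stages in order to Gal-30-1. In wild-type cells it was at 425, 309, 270.1, 238, 60.7, 94.6, 42.4 and 35.5 FPKM. It was thus highest in raffinose and lower at each galactose time in turn, dropped within 30 min of glucose, recovered in part by 120 min, and was lowest in the second pulse, in both strains. The highest level was 12.6 times the lowest in hda1Δ cells and 12 times in wild-type cells. The dubious ORF YPR123C, at 0.0055 to 2.31 FPKM, shares 368 bases with CTR1 on the other strand, and the counting is not stated to use strand, so reads there cannot be assigned with certainty.

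FRE1 encodes the major cell surface reductase of ferric and cupric ions. Its level was 146, 106, 80.1, 51.4, 35.1, 51.4, 12.2 and 10.5 FPKM in hda1Δ cells over the same stages, against 240.4, 190.2, 159, 139.8, 56.7, 77.2, 25.4 and 16.7 FPKM in wild-type cells. The hda1Δ library was the lower of the pair at all 8 stages, and the Poisson intervals of the pair did not overlap at any. Such intervals are narrow at this depth, and how many other ORFs separate in this way was not counted. Among the tested ORFs, the FRE1 fold between strains lay between percentile 1.26 (Ra-0) and 8.81 (Gal-30-1). The highest level was 13.9 times the lowest in hda1Δ cells and 14.4 times in wild-type cells.

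FRE7 encodes a putative reductase of the same family whose expression is known to rise when copper is low. It was at 76.6, 49.5, 40.9, 27.6, 7.69, 9.74, 4.9 and 5.88 FPKM in hda1Δ cells, against 105, 81.7, 70.8, 68.2, 7.14, 8.92, 6.8 and 7.46 FPKM in wild-type cells. Its levels formed a high group of raffinose and the first pulse and a low group of glucose and the second pulse, which did not overlap in either strain. The set was chosen on the lower FRE7 levels in the second pulse, so this grouping is a description. How many other ORFs split in this way was not counted. Relative to other ORFs, FRE7 stood at the 76.8th percentile of the tested ORFs in hda1Δ cells in raffinose and at the 10.8th at Gal-15-1. In wild-type cells it stood at the 82.6th in raffinose and at the 12.5th at Gal-15-1. The highest level was 15.6 times the lowest in hda1Δ cells and 15.4 times in wild-type cells, the widest range of the 5 members. The lowest level was at Gal-15-1 in both strains, in the pulse that served to choose the set, so this rank is a description too.

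MAC1, the gene for the activator itself, kept within 20.9 to 37.3 FPKM in hda1Δ cells and 23.8 to 31.6 FPKM in wild-type cells, a range of 1.78-fold and 1.33-fold. It was highest at Glu-30 in hda1Δ cells, and in wild-type cells it was at 31.4 FPKM at Glu-30 and 31.6 FPKM at Gal-15-1. CTR3, for the other high-affinity transporter, was the lowest member in every library, at 1.79 to 7.14 FPKM in hda1Δ cells and 1.63 to 4.81 FPKM in wild-type cells. Its interval at Ra-0, 5.52 to 9.05 FPKM in hda1Δ cells, lay above all 7 later hda1Δ values. Its intervals in hda1Δ and wild-type cells overlapped at all 8 stages.

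In raffinose and the first pulse the order of the levels was CTR1, FRE1, FRE7, MAC1 and CTR3 in both strains, and the intervals of neighbours did not overlap except for FRE7 and MAC1 at Gal-120 in hda1Δ cells. There FRE7 had 27.6 FPKM (25.5 to 29.8) and MAC1 27.2 FPKM (24.7 to 29.9). At Glu-30 the intervals also overlapped for MAC1 and FRE1 in hda1Δ cells and for CTR1 and FRE1 in wild-type cells. In the second pulse MAC1 was above FRE1 and FRE7 in both strains. At Gal-30-1 it had 20.9 FPKM in hda1Δ cells (18.5 to 23.6) against 10.5 for FRE1 (9.16 to 12), and in wild-type cells 27.3 FPKM (24.4 to 30.5) against 16.7 (14.9 to 18.6). Other neighbours that overlapped at Gal-30-1 were CTR1 and MAC1 in hda1Δ cells and FRE7 and CTR3 in wild-type cells.

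**Figure D2:**
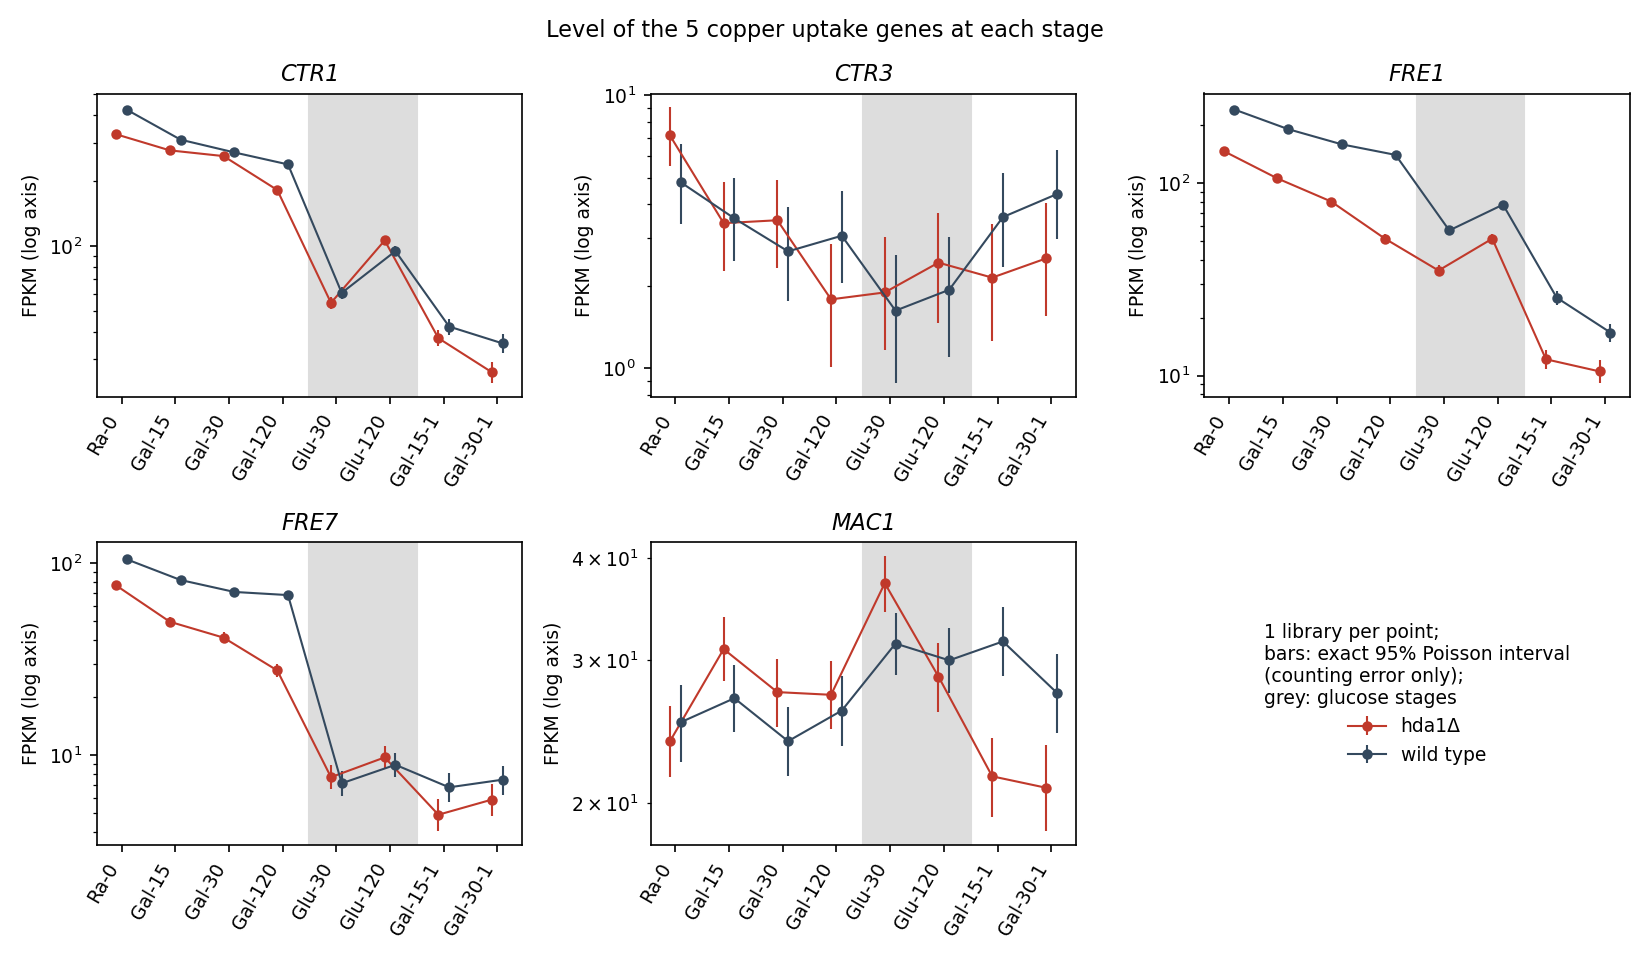
Level of each member in FPKM (log axis) at the 8 stages in order of time, in hda1Δ cells (red) and wild-type cells (dark blue). Each point is 1 library, bars are exact 95% Poisson intervals for counting error only, and grey marks the glucose stages. CTR1, FRE1 and FRE7 are highest at Ra-0 and lowest in the second pulse, MAC1 stays between 20.9 and 37.3 FPKM, and CTR3 is at 7.14 FPKM or below in all 16 libraries.

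Strains were compared at each stage as log2 of the ratio of FPKM plus 1, and a gene was called at 1.7-fold, or at its reciprocal of 0.588. The reductase genes FRE1 and FRE7 were the members called. FRE1 was called lower in hda1Δ cells at 4 of 8 stages and FRE7 at 2, and CTR1, CTR3 and MAC1 at none. That is 6 of 40 comparisons of a member at a stage lower and 0 higher. Intervals beside a fold are exact binomial ones of the plain FPKM ratio.

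FRE1 was at 0.557-fold at Gal-15 (0.529 to 0.582), 0.508-fold at Gal-30 (0.479 to 0.532), 0.372-fold at Gal-120 (0.345 to 0.392) and 0.499-fold at Gal-15-1 (0.413 to 0.552). At the 4 stages where it was not called it was at 0.610-fold (Ra-0), 0.626-fold (Glu-30), 0.670-fold (Glu-120) and 0.649-fold (Gal-30-1). So FRE1 was on the lower side in hda1Δ cells at 8 of 8 stages, also after subtraction of the median of all tested ORFs.

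FRE7 was at 0.584-fold at Gal-30 (0.534 to 0.626) and 0.414-fold at Gal-120 (0.369 to 0.444). At Gal-15, with 0.611-fold (0.563 to 0.653), and at Ra-0, with 0.734-fold (0.687 to 0.780), it was lower but not called. In glucose the interval of the ratio included 1, at 1.07-fold at Glu-30 (0.873 to 1.33) and 1.08-fold at Glu-120 (0.899 to 1.33). In the second pulse it was at 0.756-fold at Gal-15-1 (0.551 to 0.934) and 0.813-fold at Gal-30-1 (0.609 to 1.03), not called. The call at Gal-30 lay at the threshold and was lost with TPM, or with a pseudocount of 5 FPKM.

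CTR1 was at 0.743-fold to 1.12-fold, on the lower side at 7 of 8 stages, but with TPM its value at Gal-30 was 0.03 on the log2 scale in place of -0.06. MAC1 was at 0.693-fold to 1.18-fold and CTR3 at 0.660-fold to 1.40-fold, each on the lower side at 4 of 8 stages. The lowest MAC1 value was at Gal-15-1, where it had 21.6 FPKM in hda1Δ cells and 31.6 FPKM in wild-type cells. For CTR3 the interval of the ratio included 1 at all 8 stages, so no difference was detectable at its depth.

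Over all tested ORFs, the shares called lower in hda1Δ cells were 1.11% at Ra-0, 1.7% at Gal-15, 2.41% at Gal-30, 9.79% at Gal-120, 1.39% at Glu-30, 1.26% at Glu-120, 5.92% at Gal-15-1 and 4.69% at Gal-30-1. The shares called higher were 4.9%, 7.84%, 9.35%, 8.06%, 5.95%, 5.02%, 3.52% and 3.32% at the same stages. Members called lower numbered 1 of 5 at Gal-15, 2 of 5 at Gal-30, 2 of 5 at Gal-120 and 1 of 5 at Gal-15-1. At Gal-120 the median of all ORFs was itself shifted, by -0.14 on the log2 scale, and at Gal-15-1 by -0.16. Relative to that median FRE1 was at 0.412-fold and FRE7 at 0.457-fold at Gal-120, and FRE1 at 0.558-fold at Gal-15-1. Noncoding RNA genes took a larger share in the hda1Δ library at these stages. At Gal-30-1 the median was shifted as far, by -0.16, with shares of 13.9% in hda1Δ cells and 14.0% in wild-type cells, and at Ra-0 it was at 0.01 with 10.55% in hda1Δ cells and 8.88% in wild-type cells. The part of that share in these folds was not tested. Without Gal-120, 4 of 35 comparisons were lower and 0 higher, an alternative chosen after the data were seen.

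**Figure D3:**
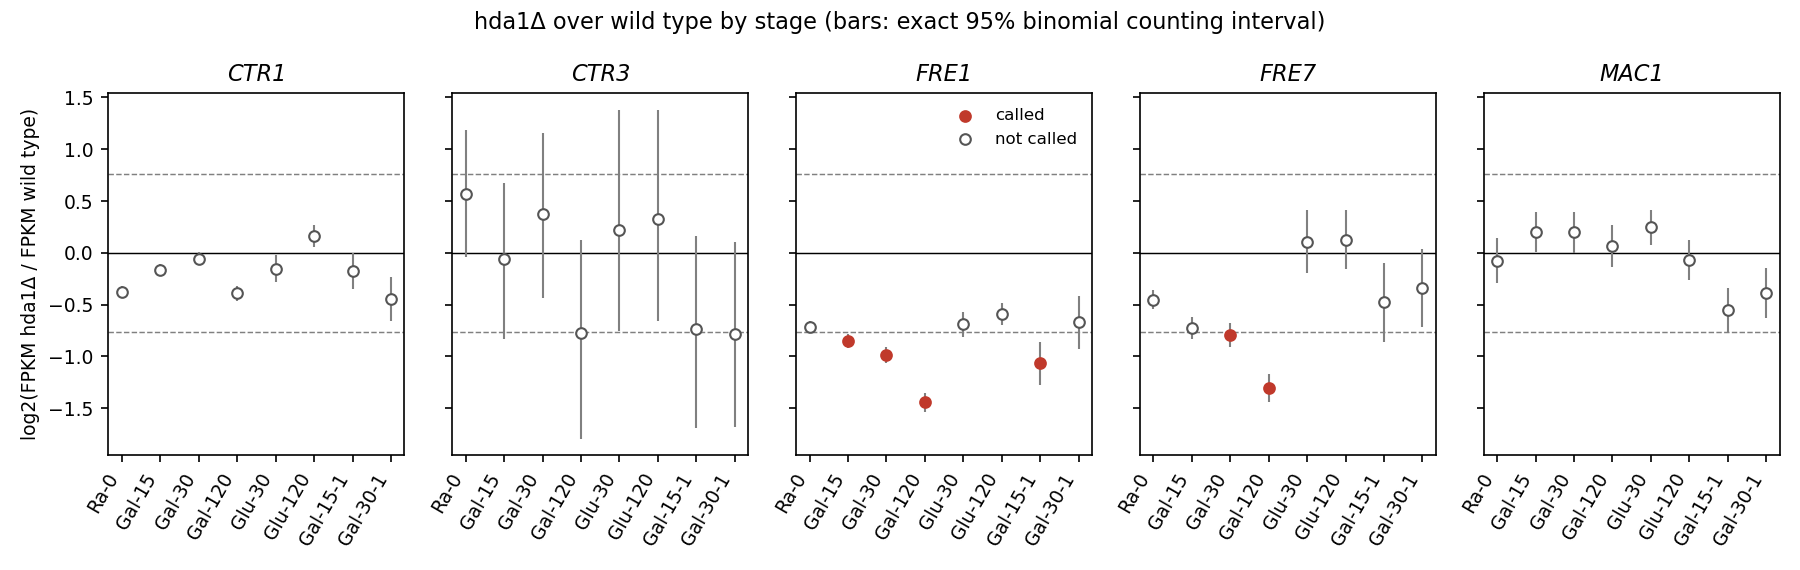
Ratio of hda1Δ to wild-type FPKM (log2) for each member at each stage, with exact 95% binomial intervals for counting error. Filled red points were called at 1.7-fold on FPKM plus 1 and open points were not; dashed lines mark 1.7-fold. FRE1 lies below 0 at all 8 stages, FRE7 lies below 0 in raffinose and both pulses and just above 0 in glucose, and the 3 CTR3 points near the lower dashed line were not called.

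Stages were compared within each strain at 2-fold. On moving to galactose, no member was called at 15 or 30 min in either strain. The shares of ORFs called lower were 1.53% at 15 min and 3.33% at 30 min in hda1Δ cells, and 0.833% and 1.29% in wild-type cells. At 120 min, 3 of 5 members were called lower than in raffinose in hda1Δ cells and 0 of 5 in wild-type cells, against 15.3% of ORFs in hda1Δ cells and 1.75% in wild-type cells. FRE1 was at 0.356-fold, FRE7 at 0.369-fold and CTR3 at 0.343-fold in hda1Δ cells. In wild-type cells FRE1 was at 0.583-fold, FRE7 at 0.655-fold and CTR3 at 0.699-fold. CTR1 was at 0.555-fold in hda1Δ cells and 0.561-fold in wild-type cells, which was not called in either. The median of all ORFs was at -0.33 on the log2 scale in this hda1Δ comparison. Relative to it FRE1 was at 0.446-fold, FRE7 at 0.463-fold and CTR3 at 0.430-fold. With a pseudocount of 5 FPKM the low CTR3 was at -0.84 on the log2 scale and no longer called.

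After 30 min of glucose CTR1 and FRE7 were lower in both strains. Relative to Gal-120, CTR1 was at 0.305-fold (0.279 to 0.325) in hda1Δ cells and 0.259-fold (0.238 to 0.274) in wild-type cells. FRE7 was at 0.303-fold (0.236 to 0.328) in hda1Δ cells and 0.118-fold (0.0890 to 0.123) in wild-type cells. FRE1 was at 0.689-fold in hda1Δ cells, which was not called, and at 0.410-fold in wild-type cells. In all, 2 of 5 members were called lower in hda1Δ cells and 3 of 5 in wild-type cells, against 5.7% of ORFs in hda1Δ cells and 4.03% in wild-type cells. The median of all ORFs was at 0.56 on the log2 scale in hda1Δ cells and 0.34 in wild-type cells. Relative to it FRE1 was at 0.468-fold in hda1Δ cells, past the threshold. MAC1 was at 1.36-fold in hda1Δ cells and 1.2-fold in wild-type cells, not called, and at 0.923-fold and 0.947-fold relative to the median.

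The FRE7 step into glucose was 1.37 smaller on the log2 scale in hda1Δ cells than in wild-type cells, a difference at the 97.7th percentile of the tested ORFs. The strains differed at Gal-120, with 27.6 FPKM in hda1Δ cells and 68.2 FPKM in wild-type cells, while at Glu-30 FRE7 was at 7.69 FPKM in hda1Δ cells and 7.14 FPKM in wild-type cells. Taken from Gal-30 in place of Gal-120, a choice made after the data were seen, the difference was 0.87. From that start, the step of FRE1 was also called lower in hda1Δ cells, at -1.17 on the log2 scale.

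By 120 min of glucose CTR1 was at 0.587-fold of its Gal-120 level in hda1Δ cells, which was not called, and at 0.401-fold in wild-type cells. FRE7 was at 0.375-fold in hda1Δ cells and 0.143-fold in wild-type cells. FRE1 was at 0.999-fold in hda1Δ cells and 0.555-fold in wild-type cells. Members called lower were 1 of 5 in hda1Δ cells and 2 of 5 in wild-type cells, against 9.22% of ORFs in hda1Δ cells and 5.48% in wild-type cells. Relative to the median of all ORFs, CTR1 in hda1Δ cells (0.486-fold) and FRE1 in wild-type cells (0.496-fold) were past the threshold as well.

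Glu-120 against Ra-0 avoids the Gal-120 libraries. Here 4 of 5 members were called lower in hda1Δ cells and 3 of 5 in wild-type cells, against 1.63% of ORFs in hda1Δ cells and 1.97% in wild-type cells. CTR1 was at 0.326-fold (0.305 to 0.343) in hda1Δ cells and 0.225-fold (0.210 to 0.236) in wild-type cells. FRE1 was at 0.356-fold in hda1Δ cells and 0.324-fold in wild-type cells. FRE7 was at 0.139-fold (0.110 to 0.147) in hda1Δ cells and 0.0939-fold (0.0735 to 0.0984) in wild-type cells. CTR3 was at 0.423-fold in hda1Δ cells and, just short of the threshold, at 0.506-fold in wild-type cells, and in hda1Δ cells it was at -0.71 on the log2 scale, not called, with a pseudocount of 5 FPKM.

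In the second pulse CTR1 and FRE1 were lower still. Relative to Glu-120, CTR1 was at 0.360-fold at Gal-15-1 and 0.253-fold at Gal-30-1 in hda1Δ cells, and at 0.454-fold and 0.381-fold in wild-type cells. FRE1 was at 0.251-fold and 0.220-fold in hda1Δ cells and at 0.338-fold and 0.227-fold in wild-type cells. FRE7, already low, was at 0.549-fold and 0.640-fold in hda1Δ cells and at 0.787-fold and 0.853-fold in wild-type cells, none of them called. So 2 of 5 members were called lower in each of the 4 comparisons, against 17.5% and 21.6% of ORFs in hda1Δ cells and 11.4% and 19.4% in wild-type cells. The first move into galactose started from raffinose and the second one from glucose, where the 3 genes were already lower.

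The contrast between the pulses is the one FRE7 was chosen on, so its values are a description. At 15 min FRE7 was at 0.117-fold in the second pulse relative to the first in hda1Δ cells and at 0.0944-fold in wild-type cells, and at 30 min it was at 0.164-fold in hda1Δ cells and 0.118-fold in wild-type cells. CTR1 was at 0.139-fold and 0.104-fold in hda1Δ cells at 15 and 30 min, and at 0.140-fold and 0.135-fold in wild-type cells. FRE1 was at 0.124-fold and 0.142-fold in hda1Δ cells at 15 and 30 min, and at 0.138-fold and 0.111-fold in wild-type cells. In all 4 comparisons these 3 genes lay between 0.0944-fold and 0.164-fold. MAC1 was at 0.707-fold and 0.771-fold in hda1Δ cells and at 1.17-fold and 1.14-fold in wild-type cells, not called. CTR3 was at 0.715-fold and 0.786-fold in hda1Δ cells and at 1.01-fold and 1.45-fold in wild-type cells, not called. In each of the 4 comparisons 3 of 5 members were called lower, with backgrounds of 10.5% and 14.1% of ORFs in hda1Δ cells at 15 and 30 min and 6.51% and 14.5% in wild-type cells. Without FRE7 the count was 2 of 4 in each. Since the contrast served to choose the set, nothing is read from these counts.

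**Figure D4:**
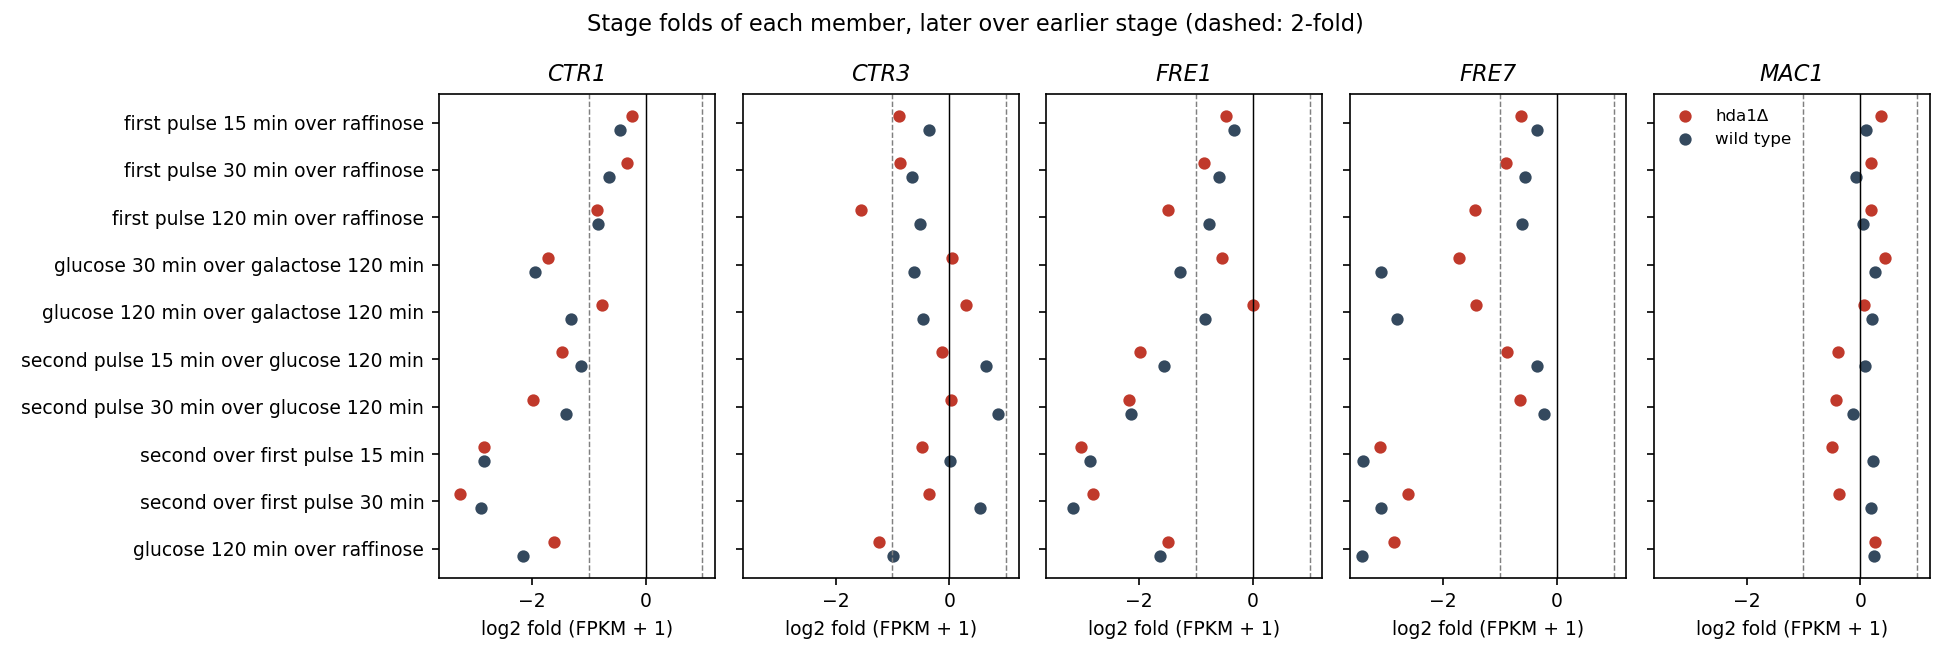
Log2 fold of FPKM plus 1 between stages (later over earlier) for each member, hda1Δ (red) above wild type (dark blue) in each row, with dashed lines at 2-fold. CTR1, FRE1 and FRE7 lie between 0.0944-fold and 0.164-fold in the rows of second over first pulse, and MAC1 stays inside the dashed lines in all 10 rows.

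Across the 16 libraries CTR1, FRE1 and FRE7 followed one another closely, as Pearson r of log2(FPKM + 1). The libraries form 2 time courses and share stages, so r describes them and carries no p. Every r with FRE7 also covers the 2 pulses on whose contrast the set was chosen, so it is a description. CTR1 and FRE7 had r of 0.956, and each was the ORF most like the other among 5880. CTR1 and FRE1 had r of 0.940, and FRE1 and FRE7 had 0.893. Within the 8 hda1Δ libraries the same pairs had 0.958, 0.962 and 0.917, and within the 8 wild-type libraries 0.966, 0.976 and 0.894. Only 5 of 5880 ORFs (0.085%) had r over 0.9 with CTR1, and 54 (0.918%) had r over 0.8. These shares were counted for CTR1 only. Among 5880 ORFs, FRE7 was at place 20 in likeness to FRE1, and FRE1 was at place 6 in likeness to FRE7.

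CTR3 was less like the others, with 0.435 to CTR1 and 0.552 to FRE7, and its few fragments limit how closely it could follow any gene. MAC1 had r of -0.07 with CTR1, -0.21 with FRE7 and 0.08 with FRE1. Within the hda1Δ libraries these were 0.29, 0.15 and 0.44, and within the wild-type libraries -0.76, -0.85 and -0.63.

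The 5 closest of 4904 ORFs, those averaging 10 FPKM or more and not at 0 in any library, were then named. For CTR1 they were FRE7, IMD2 (0.944), FRE1, YOR248W (0.901) and OPI3 (0.9). IMD2 encodes an IMP dehydrogenase of guanine nucleotide synthesis and OPI3 a phospholipid methyltransferase. For FRE7 they were CTR1, the aminopeptidase gene AAP1 (0.943), IMD2 (0.939), YOR248W (0.921) and FRE1. For FRE1 they were CTR1, CLU1 (0.936), the IMP dehydrogenase gene IMD4 (0.929), BFR1 (0.922) and EFT1 (0.920), which encodes elongation factor eEF2. EFT1 and the IMD genes have close paralogs among which reads may be shared. Among the iron uptake genes and regulators listed below, FET4, for a low-affinity transporter of iron and copper, had r of 0.835 with CTR1. It stood apart from the rest of that list, which ranged from -0.81 (FIT2) to 0.09 (FTR1).

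**Figure D5:**
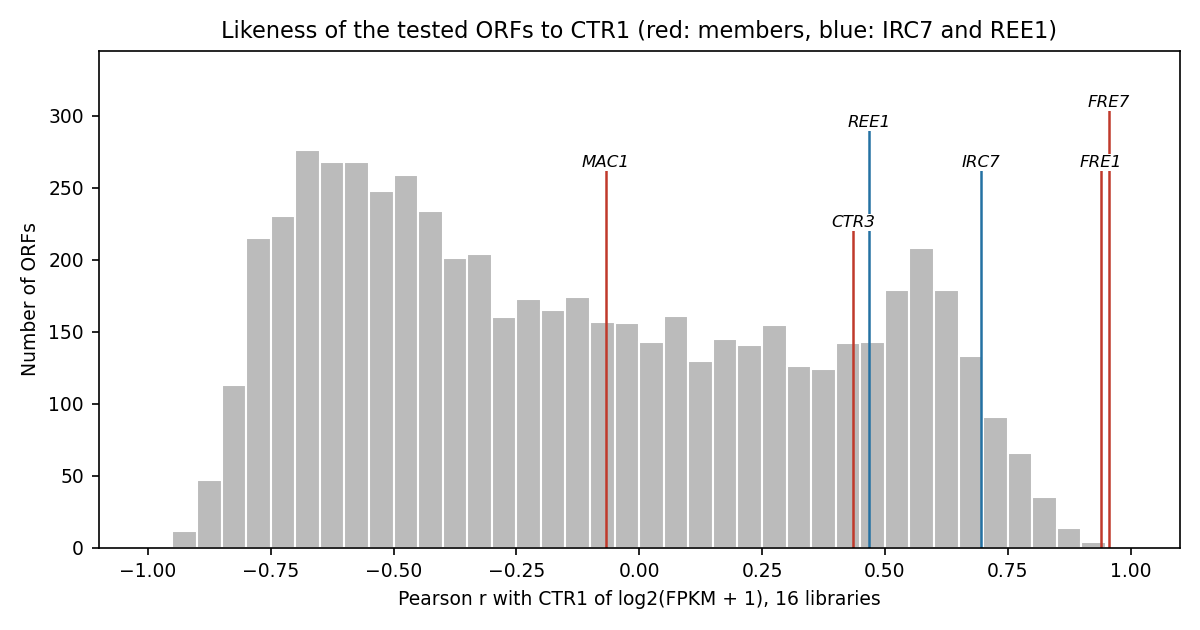
Number of tested ORFs by Pearson r with CTR1 of log2(FPKM + 1) over 16 libraries. Red lines mark the other members and blue lines IRC7 and REE1. FRE7 (0.956) and FRE1 (0.940) lie at the upper end, IRC7 at 0.695, REE1 at 0.467, CTR3 at 0.435 and MAC1 at -0.07.

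IRC7 and REE1, the further Mac1 targets listed, were in part like the members and in part not. IRC7, for a cysteine desulphydrase, was at 55.4, 31.9, 24.7, 14.3, 33.6, 49.0, 14.9 and 11 FPKM in hda1Δ cells over the 8 stages, against 52.3, 34.5, 30.7, 23.5, 25.9, 28.3, 11.2 and 10.7 FPKM in wild-type cells. Like CTR1 it was highest in raffinose and lowest at Gal-30-1, but unlike CTR1 it did not drop from Gal-120 to Glu-30. REE1, for a regulator of enolase that is known to respond to galactose through Gal4 as well, was at 486 FPKM in hda1Δ cells at Ra-0, 141 at Glu-120 and 349 at Gal-30-1, against 337, 55.1 and 242 FPKM in wild-type cells. At Glu-30 relative to Gal-120 it was lower in both strains, at 0.415-fold in hda1Δ cells and 0.467-fold in wild-type cells. In the second pulse relative to the first, IRC7 was called lower in all 4 comparisons, at 0.485-fold (15 min) and 0.467-fold (30 min) in hda1Δ cells and at 0.345-fold and 0.369-fold in wild-type cells. REE1 was called lower in that contrast at 15 min in wild-type cells (0.457-fold), and its other values were 0.624-fold and 0.798-fold in hda1Δ cells and 0.707-fold at 30 min in wild-type cells. REE1 was higher in hda1Δ cells at Glu-120 (2.53-fold, 2.27 to 2.87) and Gal-15-1 (1.71-fold), and IRC7 at Glu-120 (1.71-fold, 1.52 to 1.98). Both values of 1.71-fold lay at the threshold of 1.7-fold. Of 16 comparisons of IRC7 and REE1 between strains, 3 (18.8%) were called higher and 0 lower, while the calls of FRE1 and FRE7 were lower. The stages of these calls differ in part. In the first pulse, where FRE1 and FRE7 had calls, IRC7 was on the lower side in hda1Δ cells and REE1 on the higher side, neither called. Over all tested ORFs and the 8 stages, 5.99% of comparisons were higher in hda1Δ cells and 3.53% lower.

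Copper detoxification genes numbered 5, which were CUP2 itself and genes that Cup2 activates when copper is in excess. Of their 40 comparisons between strains 7 (17.5%) were higher in hda1Δ cells and 2 (5%) lower, against 5.99% and 3.53% over all tested ORFs. CRS5, a metallothionein gene, was at 56.5, 69.1 and 109 FPKM in hda1Δ cells at Gal-15, Gal-30 and Gal-120, against 29.5, 38.9 and 51.0 FPKM in wild-type cells (1.88-fold, 1.76-fold and 2.12-fold). The metallothionein genes CUP1-1 and CUP1-2 are near-identical copies, so the split of reads between them is uncertain. Both were called higher in hda1Δ cells at Ra-0 and Glu-120 and lower at Glu-30. The counts above hold these calls for each copy, so they are not separate observations. CUP1-1 was at 895 FPKM in hda1Δ cells and 423 FPKM in wild-type cells at Ra-0, but at 1667 FPKM in hda1Δ cells and 2910.5 FPKM in wild-type cells at Glu-30. At Glu-120 it was again higher in hda1Δ cells, at 766 FPKM against 384 FPKM in wild-type cells. CUP2 and SOD1 were not called at any stage.

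Of the 11 genes of copper delivery inside the cell, 5 were called at some stage, with 7 of 88 comparisons higher in hda1Δ cells and 7 lower. That is 7.95% each way, against 5.99% higher and 3.53% lower over all tested ORFs. CTR2 and COX23, which are listed at 0 in some libraries, gave 8 of these 14 calls. Without them 4 of 72 comparisons of 9 genes were higher and 2 lower, from PIC2, COX19 and COX11, the last 2 for proteins of copper delivery to cytochrome c oxidase. PIC2, for a mitochondrial carrier of copper and phosphate, was at 193, 198 and 163 FPKM in hda1Δ cells in the first pulse, against 100.8, 97.6 and 84.8 FPKM in wild-type cells (1.91-fold, 2.02-fold and 1.92-fold). It was higher still at Gal-30-1, with 459 FPKM in hda1Δ cells and 595 FPKM in wild-type cells. CTR2 was listed between 0 and 64 FPKM in hda1Δ cells and between 0 and 66.1 FPKM in wild-type cells, and COX23 was listed at 0 at Gal-15-1 in hda1Δ cells beside 17.0 FPKM in wild-type cells, so no fold is given for either.

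The 7 other reductase genes of the FRE family had 3 of 56 comparisons higher in hda1Δ cells and 1 lower. These shares, 5.36% and 1.79%, were no larger than the 5.99% and 3.53% over all tested ORFs. FRE5 was at 0.533 FPKM in hda1Δ cells and 1.95 FPKM in wild-type cells at Ra-0 (0.520-fold). FRE3 was at 9.81 FPKM in hda1Δ cells and 4.77 FPKM in wild-type cells at Gal-30 (1.88-fold). FRE4 was at 2.89 FPKM in hda1Δ cells and 1.19 FPKM in wild-type cells at Gal-15-1 (1.78-fold).

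Iron uptake genes and their regulators numbered 12, with 8 of 96 comparisons between strains higher in hda1Δ cells and 10 lower. That is 8.33% and 10.4%, against 5.99% and 3.53% over all tested ORFs. FIT1, for a cell wall mannoprotein that retains iron, was at 14.2 FPKM in hda1Δ cells and 4.52 FPKM in wild-type cells at Gal-15 (2.76-fold). FIT3, of the same kind, was at 34.3 FPKM in hda1Δ cells and 135 FPKM in wild-type cells at Ra-0 (0.259-fold). FTR1, for the iron permease, was at 15.5 FPKM in hda1Δ cells and 40.9 FPKM in wild-type cells at Gal-120 (0.394-fold). At Glu-30 relative to Gal-120, 9 of 12 were called higher and 0 lower in hda1Δ cells, and 8 were called higher and 1 lower in wild-type cells, against 28.6% of ORFs called higher in hda1Δ cells and 10.1% in wild-type cells. The lower one was FET4, at 9.33 FPKM at Glu-30 and 31.6 FPKM at Gal-120 in wild-type cells. At Glu-120, 4 of 12 were called higher in hda1Δ cells and 5 of 12 in wild-type cells, against 17% of ORFs in hda1Δ cells and 3.71% in wild-type cells. At Glu-30 FTR1 was at 268 FPKM in hda1Δ cells (16.3-fold of Gal-120) and 347 FPKM in wild-type cells (8.30-fold). The siderophore transporter gene SIT1 was at 318 FPKM in hda1Δ cells and 389.9 FPKM in wild-type cells at Glu-30. At Glu-120 FTR1 was at 149 FPKM in hda1Δ cells and 195 FPKM in wild-type cells.

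Read against all tested ORFs over the 8 stages, 6 of 40 member comparisons (15%) were lower in hda1Δ cells, where 3.53% of all ORF comparisons were, and 0 were higher, where 5.99% were. The median log2 fold was -0.37 for the members and -0.01 for all tested ORFs. The 8 comparisons of a gene at the stages are not replicates.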

How the data were processed

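RNA of the 16 samples, taken along the 2 time courses, was extracted by the authors with hot phenol, and libraries were made with a directional mRNA kit. Per the labels' processing notes, the tools were bedtools 2.26.0, FastQC 0.11.5, HISAT2 2.0.4, SAMtools and StringTie 1.3.0, and the build was R64. Whether reads were paired, and whether counting used strand, is not given in the sources used here. The deposited tables give coverage, FPKM and TPM per gene, computed by the authors; within a library FPKM was proportional to coverage.

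FPKM was analysed with Python 3.11.15, pandas 2.3.3, NumPy 2.4.6 and SciPy 1.17.1, and plots used matplotlib 3.10.9. Folds are log2((FPKM + 1) ratios) with no test, since each strain and stage has 1 library. An ORF was tested if it averaged 1 FPKM or more. Coverage times length, over 2 read lengths, gave fragments for the exact Poisson and binomial intervals, and 3 fragments equal 0.217 to 0.320 FPKM for a 1 kb gene. The procedure was tested on simulated data with counting error only and with planted folds past the threshold. That test does not cover folds near the threshold, low levels like those of CTR3, or the spread between cultures. RefSeq's R64 genome gave the 500-base windows, used in place of promoter tables; 6036 of 6048 shared locus tags had the same coordinates in the deposited tables.

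The members and gene lists were chosen with earlier results of these data known. Genes named were the members, HDA1, GAL1, IRC7, REE1, in every other list up to 3 genes with the largest fold past the threshold per family of comparisons, and the 5 closest patterns. The alternatives tried were other pseudocounts, TPM, centring, other thresholds and expression minimums, and Spearman's rho.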

Additional observations from a re-analysis of the deposited data

Results flagged for a closer look

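The following genes, none of them a member, were past 1.7-fold in opposite directions between the strains at different stages, with 1 library each, so the difference was not tested. Values are log2 folds of FPKM plus 1, hda1Δ over wild type. CUP1-1 was at 1.08 at Ra-0 and -0.80 at Glu-30, and CUP1-2, its near-identical copy, at 1.12 and -0.84. COX19, for a protein of copper delivery to mitochondria, was at 0.93 at Gal-15 and -0.97 at Gal-30-1. FIT2, for a cell wall mannoprotein that retains iron, was at 0.82 at Gal-15-1 and -1.08 at Ra-0.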

How the results depend on the processing

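No paired analysis was possible because the pairs, both strains at each stage, are different conditions with 1 library each and not replicate cultures, and none could be left out as a replicate for the same reason. The 6 member comparisons lower in hda1Δ cells became 3 with a call at 2-fold (FRE1 and FRE7 at Gal-120, FRE1 at Gal-15-1). They numbered 5 with TPM or a pseudocount of 5 FPKM, 7 after centring, 6 with a pseudocount of 0.1 FPKM or with the interval required to exclude 1, and 4 without Gal-120. None was higher under any of these. Centring added FRE7 at Gal-15. The 12 of 20 second-over-first-pulse comparisons called lower numbered 12 under each alternative run, a call at 3-fold included. FRE7, chosen on this contrast, gave 4 of them, and without it 8 of 16 were called, so the count is a description. The FRE7 difference in the glucose step was 1.37 and became 0.87 with Gal-30 in place of Gal-120, and 1.14 to 1.44 with other pseudocounts, TPM and centring. The alternatives for this difference, the other window lengths and the omission of Gal-120 were chosen after the data were seen. Members with a core numbered 3 in 500 bases, 2 in 250 bases and 3 in 800 bases. Of 160 genotype and 410 stage values of members under alternatives, 12 and 61 moved beyond counting error and 0 reversed a call. Among the 410, the steps taken from Gal-30 in place of Gal-120 were judged by sign alone and not against counting error. Of 112 shares of all ORFs, 56 moved. Depth limits CTR3 most, with 15 to 67 fragments a library. No spread between cultures is known, and this limits every value here.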
